A study of Homo sapiens with 12 samples.

Results

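Breast cancer stem cell markers are genes whose products are used to sort or score tumour cells with the capacity to start a new tumour. The 9 followed here were chosen by name: CD44, CD24, PROM1, ALDH1A1, ALDH1A3, ALDH3B2, KIT, KLF4 and BMI1. They are 9 of the 60675 genes in the deposited count tables, and each matched 1 gene ID. The libraries are RNA-seq of established cell lines in 4 groups of 3: HCC1187 with sh-SOX9-AS1, HCC1187 with sh-CONTROL, MDA-MB-468 with sh-SOX9-AS1, and MDA-MB-468 with sh-CONTROL. Both lines are labelled basal-like and come from triple-negative breast cancer, a class defined by the lack of hormone receptors and of ERBB2 amplification. sh-SOX9-AS1 is a short hairpin RNA against SOX9-AS1, a long non-coding RNA gene named as antisense to the progenitor factor gene SOX9, and sh-CONTROL is a hairpin against LacZ. Every group was transfected for 48 h, and HCC1187 was kept in RPMI-1640 whereas MDA-MB-468 was kept in DMEM, so line and medium cannot be told apart. The libraries are called S10 to S12, S7 to S9, S4 to S6 and S1 to S3 in the order of the groups above. Whether the 3 libraries of each group are separate cultures is not stated, so p-values measure only the spread between these libraries, which may be technical.

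CD44 is the membrane receptor for hyaluronan, and CD24 is a small, heavily glycosylated surface protein; cells with much CD44 and little CD24 on their surface are the classic breast cancer stem cell gate. PROM1 (CD133) is a membrane glycoprotein of cell protrusions that marks stem cells in several tissues. The aldehyde dehydrogenases ALDH1A1 and ALDH1A3 oxidise retinaldehyde to retinoic acid and give the signal in the dye assay for high aldehyde dehydrogenase activity, while ALDH3B2 belongs to a branch of the family that acts on fatty aldehydes. KIT is the receptor of stem cell factor and marks luminal progenitors of the mammary gland. KLF4 is one of the zinc finger factors used to reprogram cells to pluripotency, and BMI1 is a subunit of Polycomb repressive complex 1 that supports self-renewal. Transcript levels do not measure surface protein or enzyme activity.

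In the deposited tables (GRCh38), the surface marker genes are CD44 (ENSG00000026508) at chr11:35138870-35232402 on the plus strand, CD24 (ENSG00000272398) at chr6:106969831-106975627 on the minus strand and PROM1 (ENSG00000007062) at chr4:15963076-16084378 on the minus strand. The aldehyde dehydrogenase genes are ALDH1A1 (ENSG00000165092) at chr9:72900662-73080442 on the minus strand, ALDH1A3 (ENSG00000184254) at chr15:100877714-100916626 on the plus strand and ALDH3B2 (ENSG00000132746) at chr11:67662162-67681200 on the minus strand. The receptor gene is KIT (ENSG00000157404) at chr4:54657918-54740715 on the plus strand, and the nuclear factor genes are KLF4 (ENSG00000136826) at chr9:107484852-107490482 on the minus strand and BMI1 (ENSG00000168283) at chr10:22321211-22331484 on the plus strand.

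Library totals ran from 6026376 to 10160040 counts, and S4 stood apart from its group. Over 15491 genes, the log2 level of S4 correlated at 0.972 to 0.976 with the other MDA-MB-468 knockdown libraries and at 0.990 to 0.995 with the MDA-MB-468 controls, and S4 is the library that a deposited phenotype table does not list. The marker results in MDA-MB-468 are therefore given with and without S4, and the list calls further below without it. S4 was picked out partly from these same counts. Leaving out a knockdown library that resembles the controls tends to widen the gap between the groups. Adjusted p-values and call counts without S4 do not allow for that choice and are descriptive only. SOX9-AS1 fell in HCC1187 to 1.33, 0.771 and 0.886 CPM (counts scaled to the library total) in the knockdown libraries, against 2.54, 1.54 and 1.85 CPM in the controls (log2 fold change −1.08 ± 0.36, adjusted p = 0.0349; edgeR quasi-likelihood test with Benjamini-Hochberg adjustment, as for every adjusted p below; ± is the standard error). These levels rest on few counts: 8, 5 and 9 with knockdown and 24, 13 and 17 in the controls. In MDA-MB-468 SOX9-AS1 had 5.04, 4.54 and 4.96 CPM in the knockdown libraries and 5.52, 6.70 and 5.95 CPM in the controls, a difference that did not pass with S4 (adjusted p = 0.417) or without it (adjusted p = 0.274). SOX9 fell in HCC1187 (−0.49 ± 0.16, adjusted p = 0.0256), and in MDA-MB-468 it passed without S4 (−0.82 ± 0.10, adjusted p = 2.02e-05) but not with it (−0.68, adjusted p = 0.205). Against the cell type labels, the libraries labelled HCC1187 had 0 to 0.166 CPM of KRT19 with knockdown and 0 to 0.109 CPM in the controls, and 5.64 to 8.18 and 4.03 to 6.54 CPM of EPCAM. Both are defining epithelial markers: KRT19 was at or near 0 in those libraries and EPCAM was low but detected. CDH1 was low too, at 10.6 to 13.0 CPM with knockdown and 9.37 to 11.2 CPM in the controls. KRT8 had 166 to 185 CPM with knockdown and 198 to 201 CPM in the controls, and KRT18 had 73.0 to 86.6 and 99.7 to 103 CPM. The identity of the cells in those libraries could not be checked here, so HCC1187 below means the libraries with that label. In the MDA-MB-468 libraries none of the 5 epithelial markers was low: KRT19 had 2039 to 2415 CPM with knockdown and 1787 to 2115 CPM in the controls.

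The promoters of ALDH1A3, KIT and KLF4 are shown because these are the 3 markers with the largest falls in MDA-MB-468 once S4 is left out, and each has a single start in the RefSeq promoter table (GRCh38.p14). That table holds 8 of the 9 markers, and ALDH3B2 is named only. Each line gives the 250 bases before the start, on the strand of the gene, at chr15:100879581-100879830 (plus strand) for ALDH1A3, chr4:54657707-54657956 (plus) for KIT and chr9:107489770-107490019 (minus) for KLF4. Capitals mark 4 motifs searched on both strands: the GC box core GGGCGG, which reads CCGCCC on the other strand, the CCAAT box, the TATA box written as TATAAA, and the E-box written as CACGTG.
ALDH1A3: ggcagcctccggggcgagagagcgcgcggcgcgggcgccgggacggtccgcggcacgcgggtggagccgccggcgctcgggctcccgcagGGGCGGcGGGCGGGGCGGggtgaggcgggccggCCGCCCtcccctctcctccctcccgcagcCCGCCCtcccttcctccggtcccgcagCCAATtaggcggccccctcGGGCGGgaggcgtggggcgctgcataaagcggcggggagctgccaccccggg
KIT: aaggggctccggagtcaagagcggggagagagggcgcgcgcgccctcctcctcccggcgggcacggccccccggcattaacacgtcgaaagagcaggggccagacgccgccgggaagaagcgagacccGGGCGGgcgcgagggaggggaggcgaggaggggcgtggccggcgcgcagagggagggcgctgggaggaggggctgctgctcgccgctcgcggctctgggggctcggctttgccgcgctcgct
KLF4: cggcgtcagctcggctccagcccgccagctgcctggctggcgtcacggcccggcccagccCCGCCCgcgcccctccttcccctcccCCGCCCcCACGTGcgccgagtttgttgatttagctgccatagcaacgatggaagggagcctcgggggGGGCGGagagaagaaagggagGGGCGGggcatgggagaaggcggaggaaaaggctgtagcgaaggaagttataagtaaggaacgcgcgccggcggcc

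GGGCGG occurred 6 times before ALDH1A3, once before KIT and 4 times before KLF4; 42.6% of the 35116 promoters in the table hold it at least once. In ALDH1A3, 1 pair of these copies overlaps. CCAAT was present before ALDH1A3 (32% of all promoters hold it) and CACGTG before KLF4 (6.34%), and TATAAA, which 10.7% hold, was in none of the 3. The share of G and C was 82.4%, 76.4% and 69.2% in ALDH1A3, KIT and KLF4, above that of 98.6%, 91.9% and 77.5% of the promoters in the table. The windows of ALDH1A3 and KLF4, and 39 bases of that of KIT, lie inside the span of the gene in the deposited tables. A match is a run of letters, not a bound site.

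The 9 markers split by line before any knockdown. In the control libraries HCC1187 had far less CD44, CD24, PROM1 and aldehyde dehydrogenase transcript than MDA-MB-468 and more KIT, KLF4 and BMI1. All 9 differed at adjusted p under 0.05 (3 higher and 6 lower in HCC1187), but so did 84.1% of the 15592 genes tested (43.6% higher, 40.4% lower), so this count is near the background and is no result about the markers. PROM1, ALDH1A1 and ALDH3B2 passed the filter on low counts only through MDA-MB-468, so they could only come out lower in HCC1187. The sizes are described next by role, and they were not set against those of all genes. Large sizes were not limited to the markers. Of the lists followed further below, the luminal progenitor genes had a median log2 fold change of −7.01 in this comparison (10 of 14 tested). The pluripotency factors had 6.48 (5 of 10 tested), and the medians of the other lists lay between −1.87 and 0.52. The same limit of the filter holds for these 2 lists. In the knockdown comparisons 10 luminal progenitor genes passed it in MDA-MB-468 and 4 in HCC1187. Genes that pass through 1 line only could only come out in 1 direction, so these 2 medians rest in part on the filter.

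CD44 had 14.8, 15.4 and 15.6 CPM in the HCC1187 controls and 2246, 2195 and 2234 CPM in the MDA-MB-468 controls. The libraries of each line lay close together, and the summed counts (413 and 58494) put CD44 146-fold lower in HCC1187, with an exact 95% interval of 132 to 161 that covers counting error only. CD24 had 64.6, 70.8 and 66.0 CPM in the HCC1187 controls and 890, 836 and 677 CPM in the MDA-MB-468 controls, 12-fold lower (11.4 to 12.6). PROM1 had 2 counts over the 3 HCC1187 controls and 3783 over the 3 MDA-MB-468 controls, 1949-fold lower with an interval of 539 to 16101. A count of 0 in a library allows up to 3 counts, so 2 counts over the HCC1187 controls lie under that limit.

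Among the aldehyde dehydrogenases, ALDH1A3 had 31.8, 33.1 and 29.2 CPM in the HCC1187 controls and 673, 708 and 664 CPM in the MDA-MB-468 controls, 21.7-fold lower (20.3 to 23.3). ALDH1A1 had 11 counts in all in HCC1187 and 2311 in MDA-MB-468, 217-fold lower (121 to 434). ALDH3B2 had 2 counts in HCC1187 and 13028 in MDA-MB-468, 6713-fold lower (1858 to 55436). HCC1187 thus held ALDH1A3 as nearly its only transcript of the 3: scaled per kilobase of exon, ALDH1A3 made up 95.5% to 98.6% of their sum in the HCC1187 controls.

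The receptor KIT ran the other way, at 58.8, 72.6 and 80.8 CPM in the HCC1187 controls and 7.15, 5.82 and 5.25 CPM in the MDA-MB-468 controls, a summed-count ratio of 11.5 (9.80 to 13.6). KLF4 had 26.8, 25.7 and 31.2 CPM in the HCC1187 controls and 8.27, 7.97 and 5.83 CPM in the MDA-MB-468 controls (ratio 3.78, 3.23 to 4.45). BMI1 had 57.2, 75.3 and 62.4 CPM in the HCC1187 controls and 15.6, 14.8 and 7.93 CPM in the MDA-MB-468 controls (ratio 5.02, 4.47 to 5.66). In none of these 3 genes did the libraries of the lines overlap, as was so for 85.4% of genes (50.7% higher, 34.7% lower). With library totals as the only scaling, the median log2 fold change of all genes moved to 0.29 in HCC1187 over MDA-MB-468, against 0.06 with TMM scaling, and all 9 directions held under both. The sizes moved, as the ratios above use library totals. With TMM scaling CD44 was 171-fold, CD24 14.0-fold and ALDH1A3 25.6-fold lower in HCC1187, and KLF4 3.22-fold and BMI1 4.30-fold higher. These values lie outside the counting intervals above, and those of the other markers lie inside.

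**Figure D1:**
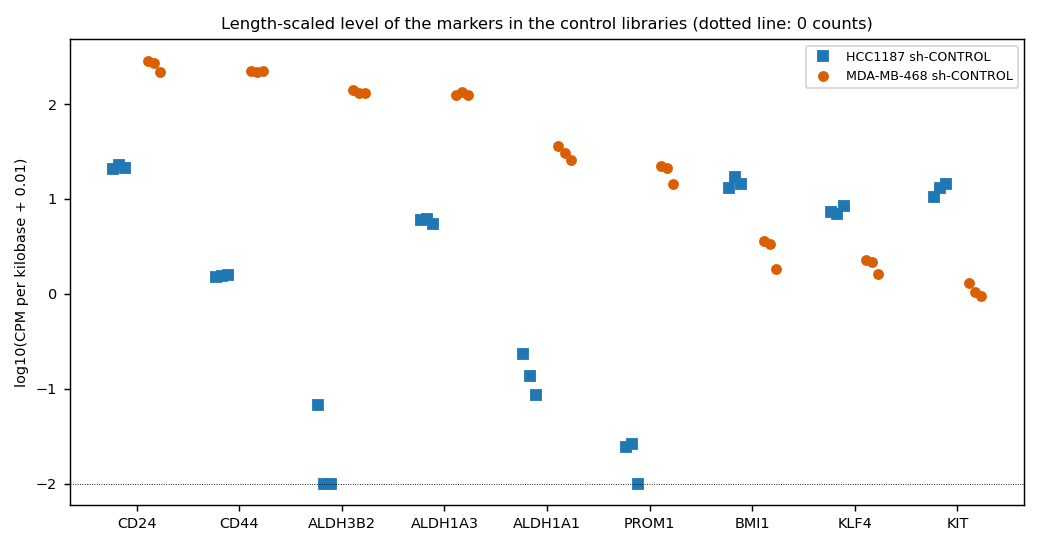
Levels of the 9 markers in the control libraries, as log10 of CPM per kilobase plus 0.01, with 1 point per library and HCC1187 (squares) left of MDA-MB-468 (circles); genes run from the highest to the lowest mean in MDA-MB-468. BMI1, KLF4 and KIT sit higher in HCC1187 and the other 6 sit lower, with ALDH3B2 and PROM1 at or next to 0 counts.

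Per kilobase, the order of the levels also differed between the lines, as the plot of length-scaled levels in the controls shows. In the HCC1187 controls CD24 was first (21.7 ± 1.05 CPM per kilobase, SD, n = 3), followed by BMI1 (14.8 ± 2.12) and KIT (12.7 ± 2.0), whose libraries overlapped. KLF4 (7.61 ± 0.792), ALDH1A3 (5.88 ± 0.373) and CD44 (1.53 ± 0.0386) came next without overlap between neighbours. In the MDA-MB-468 controls CD24 (259 ± 35.9) and CD44 (222 ± 2.65) led and overlapped. ALDH3B2 (135 ± 4.97) and ALDH1A3 (128 ± 4.42) followed and overlapped, then ALDH1A1 (30.7 ± 5.27) and PROM1 (19.3 ± 4.25), which did not. At the low end BMI1 (2.91 ± 0.961) and KLF4 (2.01 ± 0.363) overlapped, and KIT (1.09 ± 0.175) was last. The ratio of CD44 to CD24 per kilobase was 0.0710, 0.0672 and 0.0730 in the HCC1187 controls and 0.780, 0.812 and 1.02 in the MDA-MB-468 controls. Unlike the surface gate, this ratio pools all cells of a library. It rests on gene lengths of 10004 bases for CD44 and 3096 bases for CD24, and the order above likewise depends on the lengths used.

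With knockdown, HCC1187 had less KLF4, BMI1 and CD24 transcript. Of the 9 markers, 6 passed the filter on low counts, and 3 of these were lower, 0 higher and 3 not called, against 22.8% of the 14970 genes tested in either direction (9.78% higher, 13.1% lower). Fewer cells of a type and less RNA per cell cannot be told apart in such bulk libraries. The split of all calls depends on the scaling: 1464 of 3418 calls (42.8%) were higher with TMM scaling, and 2087 of 3637 (57.4%) with library totals only. The 3 falls passed under every alternative tried for HCC1187.

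BMI1 had 27.0, 33.5 and 36.7 CPM in the HCC1187 knockdown libraries and 57.2, 75.3 and 62.4 CPM in the controls. All 3 knockdown libraries lay below all 3 controls, and the log2 fold change was −1.04 ± 0.12 (adjusted p = 2.38e-06), a 2.06-fold fall of this Polycomb subunit. KLF4 had 11.9, 15.6 and 15.3 CPM with knockdown and 26.8, 25.7 and 31.2 CPM in the controls. Its groups did not overlap either, and the level was 2.02-fold lower (−1.01 ± 0.14 on the log2 scale, adjusted p = 1.55e-05). CD24 had 36.7, 47.8 and 47.1 CPM with knockdown and 64.6, 70.8 and 66.0 CPM in the controls. CD24 was thus 1.58-fold lower (−0.66 ± 0.11, adjusted p = 0.000120), again with no overlap, and S10 was the lowest library for all 3 genes.

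CD44, the partner of CD24 in the surface gate, had 11.4, 13.7 and 12.4 CPM in the HCC1187 knockdown libraries and 14.8, 15.4 and 15.6 CPM in the controls. The groups did not overlap, as for 15.5% of genes tested in that direction and 39.4% in either, but the difference did not pass (log2 fold change −0.34 ± 0.14, adjusted p = 0.0879). The per-kilobase ratio of CD44 to CD24 was 0.0966, 0.0888 and 0.0814 with knockdown and 0.0710, 0.0672 and 0.0730 in the controls, so it was higher in every knockdown library while both transcripts were lower. ALDH1A3 had 35.3, 37.0 and 38.2 CPM with knockdown and 31.8, 33.1 and 29.2 CPM in the controls. Its groups were apart in the upward direction, as for 24.0% of genes tested, and the difference did not pass (0.18 ± 0.11, adjusted p = 0.236). KIT had 68.7, 88.7 and 78.4 CPM with knockdown and 58.8, 72.6 and 80.8 CPM in the controls, which overlap (0.10 ± 0.12, adjusted p = 0.592).

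The other 3 markers could not be tested in HCC1187. PROM1 had 3, 0 and 1 counts with knockdown and 1, 1 and 0 in the controls. ALDH1A1 had 0, 3 and 6 counts with knockdown and 6, 3 and 2 in the controls. ALDH3B2 had 0, 2 and 0 counts with knockdown and 2, 0 and 0 in the controls. A count of 0 allows up to 3 counts, or 0.295 to 0.498 CPM in the 12 libraries, so no difference was detectable at this depth. The summed level of the 5 epithelial markers was 262 to 288 CPM with knockdown and 315 to 318 CPM in the HCC1187 controls, with none of the 5 at 0 counts in either group over its 3 libraries. KRT8 and KRT18 carried that gap (means of 176 and 79.1 CPM with knockdown, 199 and 101 CPM in the controls), while EPCAM and CDH1 had higher means with knockdown (7.03 and 11.5 CPM, against 5.37 and 10.3 CPM), with ranges that overlapped. The 4 endothelial markers summed to 2.47 to 4.43 CPM with knockdown and 1.09 to 2.12 CPM in the controls. The part of either in the marker results was not tested.

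**Figure D2:**
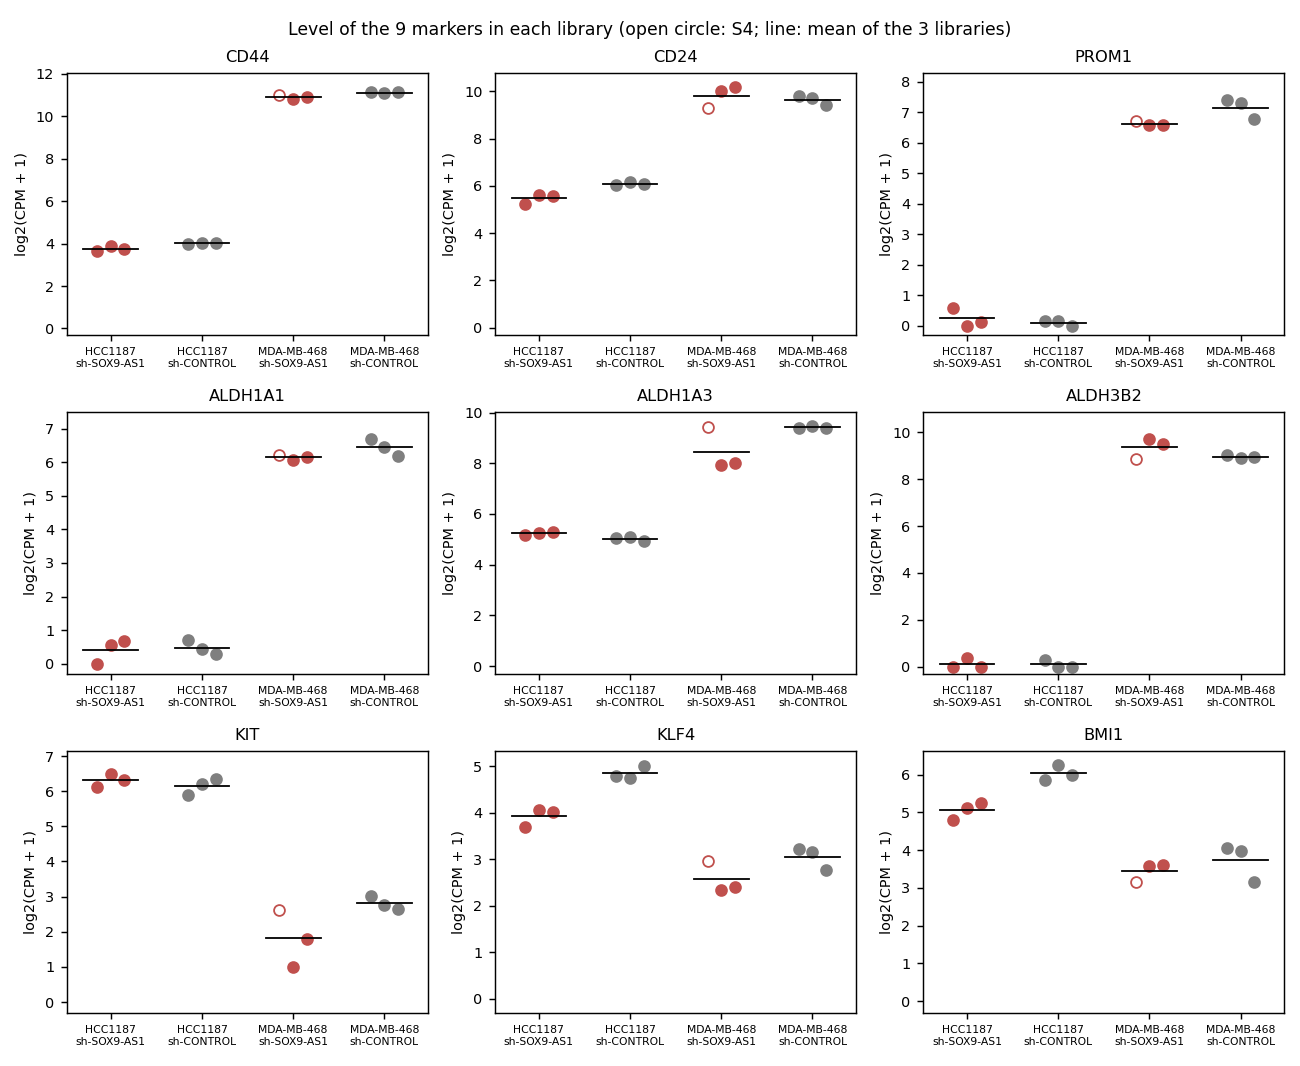
Level of each marker in the 12 libraries as log2 of CPM plus 1, in the order HCC1187 knockdown, HCC1187 control, MDA-MB-468 knockdown, MDA-MB-468 control; lines are means of 3 libraries and the open circle is S4. CD24, KLF4 and BMI1 sit lower in the HCC1187 knockdown libraries than in their controls. For every marker but BMI1 the MDA-MB-468 library S4 lies nearer to the control mean than S5 and S6 do. For CD24 it does so barely, at −0.362 from that mean against 0.365 for S5, and on the other side of it.

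In MDA-MB-468 the outcome rests on S4. With all 6 libraries, 0 of the 9 markers passed edgeR, 3 had an unadjusted p under 0.05 (PROM1, ALDH3B2 and KIT), and 0 passed DESeq2. Of all genes, 1 of 13638 genes (0.00733%) passed edgeR, 18.7% had an unadjusted p under 0.05, and 2.23% passed DESeq2. Without S4, 2 of the 9 markers were higher (CD24 and ALDH3B2), 6 were lower (CD44, PROM1, ALDH1A1, ALDH1A3, KIT and KLF4) and BMI1 did not pass. The background without S4 was 40.7% of 13947 genes (20.0% higher, 20.7% lower), and 6 of the 9 markers passed DESeq2, against 31.4% of those genes with that tool. With S4 kept, the groups of CD44, PROM1 and KIT still did not overlap, all lower, as for 12.5% of genes (9.40% higher, 21.9% in either direction). Without S4 the libraries of the groups did not overlap for 61.6% of genes (28.7% higher, 32.9% lower).

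ALDH1A3 had 684, 240 and 257 CPM in S4, S5 and S6 and 673, 708 and 664 CPM in the controls. S4 thus lay within the range of the controls, and S5 and S6 far below it. The log2 fold change was −0.77 ± 0.36 with S4 (adjusted p = 0.280) and −1.43 ± 0.08 without it (adjusted p = 3.99e-09), a 2.70-fold fall. ALDH3B2 moved the other way: it had 462, 828 and 731 CPM in S4, S5 and S6 and 516, 483 and 485 CPM in the controls. S4 was below all 3 controls and S5 and S6 were above them. Its log2 fold change was 0.47 ± 0.19 with S4 (adjusted p = 0.247) and 0.68 ± 0.08 without it (adjusted p = 9.07e-06). ALDH1A1 had 73.6, 65.8 and 70.3 CPM in S4, S5 and S6 and 102, 86.8 and 72.5 CPM in the controls. The control S3 lay among the knockdown libraries, and the fall of 0.34 ± 0.12 on the log2 scale without S4 was narrow (adjusted p = 0.0399; 0.282 with S4). That call of ALDH1A1 was also lost when S5 (adjusted p = 0.262), S6 (0.125), S1 (0.195) or S2 (0.0742) was left out too, with DESeq2 (0.0638), and when the other 11 libraries were fitted together (0.0560).

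Summed per kilobase, the 3 aldehyde dehydrogenases stayed within a narrow range while their shares changed. The sum was 280, 294 and 272 CPM per kilobase in S4, S5 and S6 and 303, 295 and 282 in the controls, which overlap. ALDH1A3 made up 45.7%, 15.3% and 17.7% of it in S4, S5 and S6 and 41.6%, 45.0% and 44.0% in the controls. ALDH3B2 made up 45.0%, 76.8% and 73.2% in S4, S5 and S6 and 46.5%, 44.7% and 46.9% in the controls. S4 resembled the controls in both shares, and these sums and shares were not tested.

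**Figure D3:**
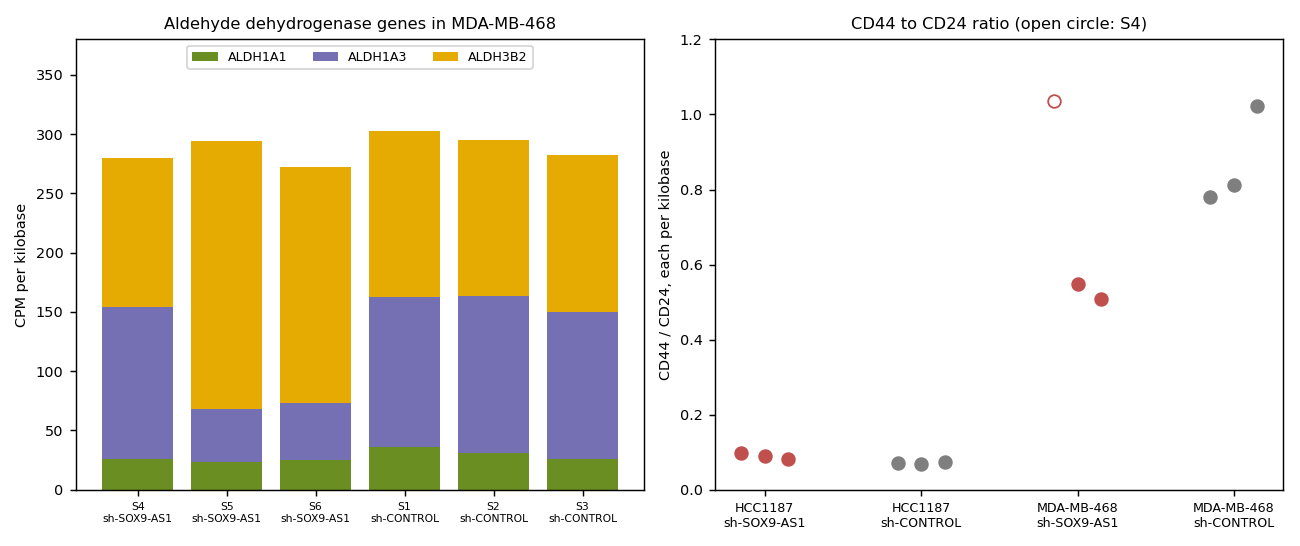
Left, stacked bars of ALDH1A1, ALDH1A3 and ALDH3B2 in CPM per kilobase in the 6 MDA-MB-468 libraries, knockdown S4 to S6 left of the controls S1 to S3; the totals lie between 272 and 303 and ALDH1A3 shrinks in S5 and S6 only. Right, the ratio of CD44 to CD24 per kilobase in each library of the 4 groups (open circle, S4): S5 and S6 lie below the MDA-MB-468 controls and the HCC1187 knockdown libraries above theirs.

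Of the surface markers in MDA-MB-468, CD24 had 619, 1025 and 1152 CPM in S4, S5 and S6 and 890, 836 and 677 CPM in the controls. S4 was the lowest of the 6 libraries, and S5 and S6 the highest. The log2 fold change was 0.24 ± 0.22 with S4 (adjusted p = 0.534) and 0.47 ± 0.10 without it (adjusted p = 0.00200), a call lost when S6 was left out as well (adjusted p = 0.0538). CD44 had 2075, 1815 and 1896 CPM in S4, S5 and S6 and 2246, 2195 and 2234 CPM in the controls. All 3 knockdown libraries were below the controls, by a small margin: −0.18 ± 0.09 with S4 (adjusted p = 0.290) and −0.24 ± 0.07 without it (adjusted p = 0.0179). That CD44 call was lost when a second library was left out, be it S5 (adjusted p = 0.117), S1 (0.0745) or S2 (0.0714). The ratio of CD44 to CD24 per kilobase was 1.04, 0.548 and 0.509 in S4, S5 and S6 and 0.780, 0.812 and 1.02 in the controls, lower in S5 and S6 than in any control.

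PROM1 had 102, 94.4 and 94.0 CPM in S4, S5 and S6 and 166, 156 and 107 CPM in the controls. The control S3 lay next to the knockdown libraries, and the fold change was alike with S4 (−0.54 ± 0.16, adjusted p = 0.205) and without it (−0.58 ± 0.14, adjusted p = 0.00391). The PROM1 call without S4 was lost when S5 (adjusted p = 0.0623) or S6 (0.0606) was left out too. KIT had 5.19, 1.01 and 2.48 CPM in S4, S5 and S6, from 36, 8 and 18 counts, and 7.15, 5.82 and 5.25 CPM in the controls. S4 was just under the lowest control, and S5 and S6 well under it. KIT thus had −1.07 ± 0.46 with S4 (adjusted p = 0.262) and −1.80 ± 0.34 without it (adjusted p = 0.000665), a 3.48-fold fall from an already low level. The calls of ALDH1A3, ALDH3B2 and KIT without S4 stood under every alternative tried.

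KLF4 had 6.77, 4.04 and 4.27 CPM in S4, S5 and S6 and 8.27, 7.97 and 5.83 CPM in the MDA-MB-468 controls. S4 lay within the control range, and the log2 fold change was −0.53 ± 0.27 with it (adjusted p = 0.302) and −0.80 ± 0.24 without it (adjusted p = 0.0141). The KLF4 call without S4 was lost when S5 (adjusted p = 0.111) or S6 (0.0785) was left out too, and with DESeq2 (0.0545). BMI1 had 7.92, 11 and 11.2 CPM in S4, S5 and S6 and 15.6, 14.8 and 7.93 CPM in the controls. S4 and the control S3 were equally low, so the groups overlapped, and BMI1 did not pass with S4 (−0.33 ± 0.27, adjusted p = 0.507) or without it (−0.19 ± 0.23, adjusted p = 0.552). Without S4 and S3 together BMI1 was lower by 0.43 on the log2 scale and passed (adjusted p = 0.0289). The summed epithelial markers gave 4673 to 5419 CPM with knockdown and 4725 to 5247 CPM in the controls of MDA-MB-468, ranges that overlap.

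**Figure D4:**
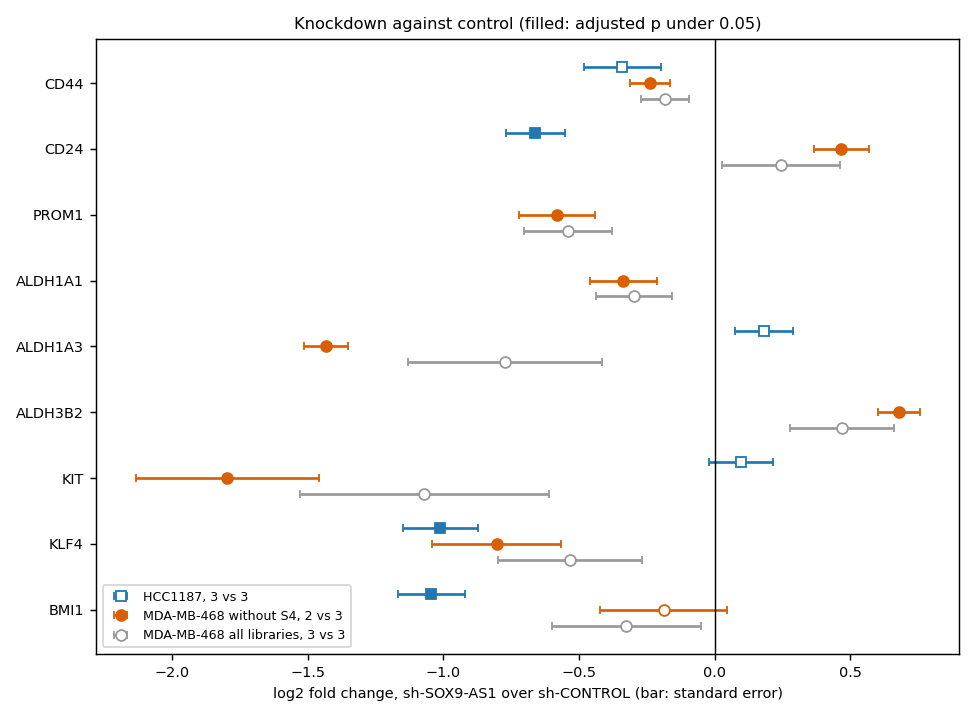
Log2 fold changes of sh-SOX9-AS1 over sh-CONTROL with standard errors, for HCC1187 (squares), MDA-MB-468 without S4 (orange circles) and MDA-MB-468 with all libraries (grey circles); filled symbols passed at adjusted p under 0.05, and PROM1, ALDH1A1 and ALDH3B2 have no HCC1187 value because of low counts. KLF4 was lower in HCC1187 and in MDA-MB-468 without S4, while CD24 was lower in HCC1187 (−0.66) and higher in MDA-MB-468 without S4 (0.47).

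Whether the knockdown effect differed between the lines was tested as an interaction, HCC1187 minus MDA-MB-468. With all 12 libraries 0 of the 9 markers passed edgeR, 4 had an unadjusted p under 0.05 (CD24, ALDH1A3, KIT and BMI1) and 2 passed DESeq2 (CD24 and KIT), and of all 16328 genes 3.75% passed edgeR (1.24% higher, 2.52% lower), 20.6% had an unadjusted p under 0.05 and 7.17% passed DESeq2. Without S4, 4 of the 9 passed, against 25.6% of 16807 genes (12.4% higher, 13.2% lower). CD24 differed by −1.13 ± 0.15 on the log2 scale (adjusted p = 4.51e-06), with a fall in HCC1187 and a rise in MDA-MB-468. ALDH1A3 differed by 1.62 ± 0.13 (adjusted p = 3.17e-10) and KIT by 1.90 ± 0.36 (adjusted p = 0.000286), both lower in MDA-MB-468 and not called in HCC1187. BMI1 differed by −0.85 ± 0.27 (adjusted p = 0.0186), a call lost when S5 (adjusted p = 0.0587) or S6 (0.0673) was left out as well.

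KLF4 did not pass the test of a difference between the lines, with −0.47 ± 0.29 for all libraries (adjusted p = 0.393) and −0.21 ± 0.28 without S4 (adjusted p = 0.663), nor did CD44 (−0.14 ± 0.14, adjusted p = 0.584, and −0.10 ± 0.14, adjusted p = 0.683). For PROM1, ALDH1A1 and ALDH3B2 the difference rests on the few HCC1187 counts given above. The split of all calls of this test moved with the scaling: 33% were higher with TMM scaling and 46.9% with library totals only over the 12 libraries, and 48.6% and 59.1% without S4.

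The partners of the markers were followed in 9 lists, described by counts beside the backgrounds given above. In HCC1187, 35 of the 122 list genes that passed the filter were called. In MDA-MB-468 with all libraries 0 of 122 passed edgeR, 25 had an unadjusted p under 0.05 and 5 passed DESeq2. Without S4, 62 of 123 were called in MDA-MB-468, so all MDA-MB-468 list calls below are without S4. The median log2 fold change over all genes tested was 0.01 in HCC1187 and 0.00 in MDA-MB-468 without S4.

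Of the other KLF genes, 12 were tested in HCC1187, where 6 were lower, 1 higher and 5 not called (median −0.32; 4 fell with library totals only). KLF12 had 76.1 CPM with knockdown and 108 CPM in the controls on average (−0.56 ± 0.09, adjusted p = 0.000101), and KLF3, KLF5 and KLF4 were lower alongside it. KLF15 rose to 10.3 CPM with knockdown, against 5.42 CPM in the controls (0.84 ± 0.19, adjusted p = 0.00300). In MDA-MB-468, 5 of 13 were lower, 4 higher and 4 not called (median −0.18). KLF5, an epithelial factor, averaged 56.7 CPM in S5 and S6 and 112 CPM in the controls (−0.96 ± 0.11, adjusted p = 1.08e-05; 88.9 CPM in S4), and KLF8 averaged 66.8 and 30.6 CPM (1.15 ± 0.10, adjusted p = 4.68e-07; 32.6 CPM in S4).

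Of the 20 Polycomb partners of BMI1, 3 were lower, 1 higher and 16 not called in HCC1187 (median −0.08). PHC3, a subunit of the same complex, averaged 30.9 CPM with knockdown and 44.6 CPM in the controls (−0.58 ± 0.13, adjusted p = 0.00203), and CBX7, a chromodomain subunit, rose by 0.55 ± 0.14 (adjusted p = 0.00817). In MDA-MB-468, 4 were lower, 0 higher and 16 not called (median −0.11). CBX6 averaged 22.8 CPM in S5 and S6 and 58.4 CPM in the controls (−1.33 ± 0.15, adjusted p = 7.07e-06; 75.5 CPM in S4), and the others were CBX2, CBX8 and KDM2B, so that 3 of the 4 are chromodomain subunits. With library totals only, 1 of the 20 fell in HCC1187 and the MDA-MB-468 counts were as above.

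Around CD44, 5 of the 16 tested genes of hyaluronan handling and CD44 partners fell in HCC1187, 1 rose and 10 did not pass (median −0.27; 2 fell with library totals only). EZR, the ezrin that ties CD44 to actin, had 135, 149 and 132 CPM with knockdown and 264, 255 and 267 CPM in the HCC1187 controls, groups well apart (−0.97 ± 0.09, adjusted p = 5.35e-08). CEMIP2, a cell surface hyaluronidase, averaged 26.6 and 55.0 CPM (−1.10 ± 0.12, adjusted p = 5.42e-07), and the hyaluronan receptor HMMR rose by 0.45 ± 0.10 (adjusted p = 0.00288). In MDA-MB-468, 3 of 16 were lower, 3 higher and 10 not called (median 0.07). EZR had 446, 324 and 290 CPM in S4, S5 and S6 and 481, 428 and 447 CPM in the controls (−0.54 ± 0.08, adjusted p = 0.000145), while CEMIP2 rose by 0.40 ± 0.11 (adjusted p = 0.00841).

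The genes of retinoic acid handling belong to the pathway that ALDH1A1 and ALDH1A3 feed. In MDA-MB-468, 7 of 18 were lower, 2 higher and 9 not called (median −0.04; 1 higher with library totals only). RDH10, which makes retinaldehyde from retinol and so supplies the substrate of ALDH1A3, had 317, 105 and 99.1 CPM in S4, S5 and S6 and 306, 318 and 356 CPM in the controls. The pattern over libraries is that of ALDH1A3, with S4 among the controls (−1.65 ± 0.09, adjusted p = 3.88e-09 without S4). RDH11, a retinal reductase, averaged 139 CPM in S5 and S6 and 46.8 CPM in the controls (1.59 ± 0.09, adjusted p = 3.08e-09; 46.1 CPM in S4). In HCC1187, 1 of 18 were lower, 2 higher and 15 not called (median 0.02): RDH10 averaged 25.4 and 32.0 CPM (−0.39 ± 0.11, adjusted p = 0.0169), and the retinol transporter STRA6 rose by 0.79 ± 0.17 (adjusted p = 0.00147).

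Of the other ALDH genes, 5 of 14 were lower, 4 higher and 5 not called in MDA-MB-468 (median −0.18; 6 lower with library totals only). ALDH3A1, a relative of ALDH3B2, averaged 1.89 CPM in S5 and S6 and 12.4 CPM in the controls (−2.68 ± 0.46, adjusted p = 0.000308; 6.48 CPM in S4). ALDH2, the mitochondrial acetaldehyde enzyme, averaged 69.6 and 42.0 CPM (0.75 ± 0.09, adjusted p = 1.97e-05; 39.9 CPM in S4), and ALDH7A1 rose by 0.71 ± 0.09 (adjusted p = 2.31e-05). In HCC1187, 2 of 16 were lower, 1 higher and 13 not called (median 0.11), with ALDH5A1 at 47.4 CPM with knockdown and 60.6 CPM in the controls (−0.41 ± 0.10, adjusted p = 0.00631).

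KITLG, the stem cell factor that binds KIT, moved in both lines. It had 21.1, 17.6 and 23.5 CPM with knockdown and 31.1, 39.3 and 28.9 CPM in the HCC1187 controls (−0.72 ± 0.13, adjusted p = 0.000470). In MDA-MB-468 it had 50.7, 136 and 167 CPM in S4, S5 and S6 and 62.0, 66.8 and 55.8 CPM in the controls (1.32 ± 0.11, adjusted p = 2.02e-07), so ligand transcript was high in the 2 libraries where KIT was lowest. Of 16 genes of KIT signalling tested in HCC1187, 5 were lower, 0 higher and 11 not called (median −0.14; 1 rose with library totals only), PIK3CA by 0.58 ± 0.12 (adjusted p = 0.00120). In MDA-MB-468, 5 of 17 were lower, 4 higher and 8 not called (median 0.00), PIK3R1 among the rises (1.42 ± 0.10, adjusted p = 2.82e-08).

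Other surface markers used to enrich stem and progenitor cells had 4 of 16 genes lower, 0 higher and 12 not passing in HCC1187 (median −0.08). The chemokine receptor CXCR4 averaged 51.5 CPM with knockdown and 82.2 CPM in the controls (−0.73 ± 0.10, adjusted p = 2.95e-05), and the integrin gene ITGA6 (CD49f) 56.1 and 80.3 CPM (−0.58 ± 0.10, adjusted p = 0.000317). In MDA-MB-468, 3 of 11 were lower, 4 higher and 4 not called (median 0.19; 3 higher with library totals only). The tetraspanin CD9 averaged 193 CPM in S5 and S6 and 107 CPM in the controls (0.88 ± 0.08, adjusted p = 9.86e-07; 110 CPM in S4). ITGA2, a collagen-binding integrin, averaged 23.7 and 51.9 CPM (−1.11 ± 0.11, adjusted p = 3.11e-06; 48.5 CPM in S4).

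Pluripotency factors were mostly too low to test. In HCC1187, 2 of 4 fell and 2 did not pass (median −0.21). LIN28B, which blocks maturation of let-7 microRNAs, had 59.9, 71.3 and 69.6 CPM with knockdown and 143, 166 and 142 CPM in the controls, groups well apart (−1.22 ± 0.10, adjusted p = 1.31e-08). MYC averaged 55.4 CPM with knockdown and 74.2 CPM in the HCC1187 controls (−0.47 ± 0.11, adjusted p = 0.00328). In MDA-MB-468, 2 of 3 fell and 1 rose: MYC averaged 62.1 CPM in S5 and S6 and 215 CPM in the controls (−1.77 ± 0.10, adjusted p = 3.99e-09; 207 CPM in S4). Of the luminal progenitor genes, 1 of 4 fell in HCC1187 (CBFB, −0.79 ± 0.11, adjusted p = 1.23e-05; list median −0.19). In MDA-MB-468 4 of 11 were lower, 2 higher and 5 not called (median −0.04). KRT15 was lower (−0.65 ± 0.11, adjusted p = 0.000228) and CLDN4 higher (0.43 ± 0.10, adjusted p = 0.00265). CBFB had −0.65 ± 0.15 (adjusted p = 0.00294) and NOTCH3 −0.40 ± 0.09 (adjusted p = 0.00297).

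**Figure D5:**
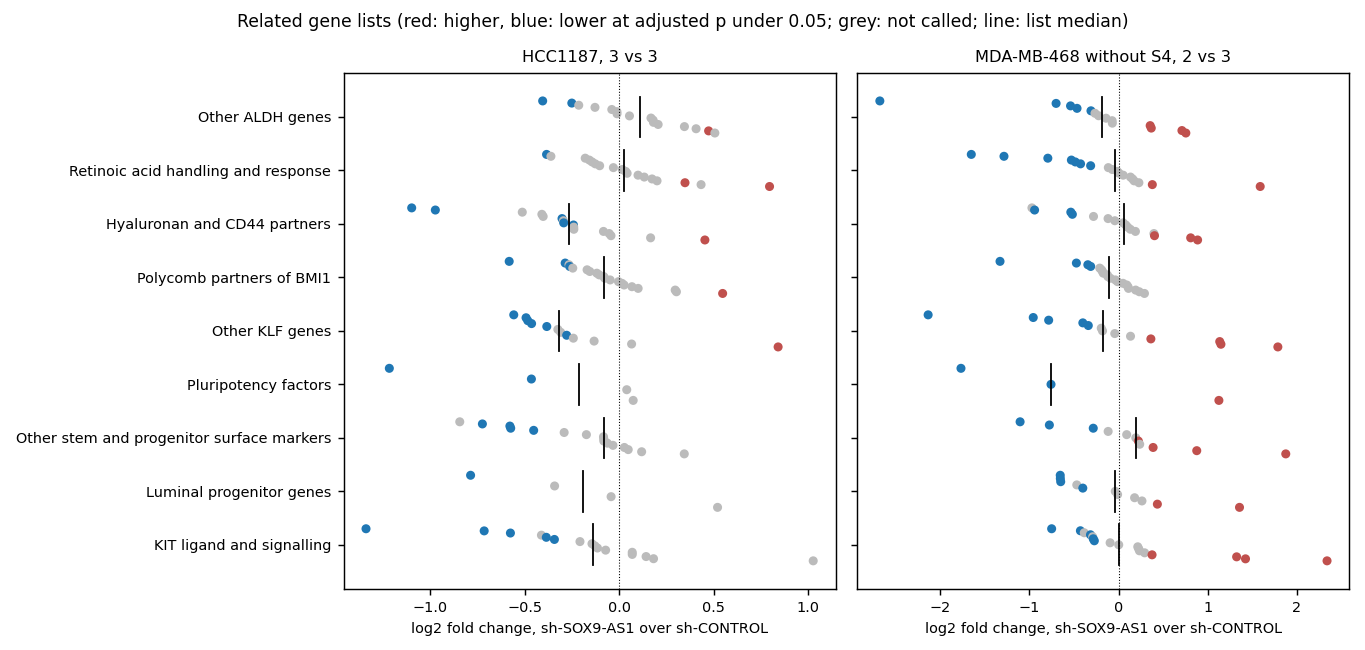
Log2 fold changes of sh-SOX9-AS1 over sh-CONTROL for the genes of the 9 lists, HCC1187 left and MDA-MB-468 without S4 right; each point is a gene (red higher, blue lower at adjusted p under 0.05, grey not called) and each line is a list median. The HCC1187 medians lie between −0.32 and 0.11, and most MDA-MB-468 lists hold calls in both directions.

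By the rule for alike genes, the closest protein-coding genes were those whose deviations from the control mean of their line correlated best with those of the marker over the 12 libraries, among 10471 genes of at least 10 CPM on average. The points share libraries and, for most markers, the gap between S4 and S5 or S6. CD24 was most like MBOAT2 (r = 0.994), an acyltransferase of phospholipids, then RBBP4 (0.985) and SRP72 (0.983). ALDH1A3 was most like KPNB1 (0.992), an importin, then DNAJC14 (0.991) and CCND1 (0.988). The nearest gene was NUFIP2 for CD44 (0.978), OSBP2 for PROM1 (0.976), MRPS35 for ALDH1A1 (0.961), ZNF317 for KIT (0.965), ORC1 for KLF4 (0.974) and RCHY1 for BMI1 (0.981). No marker was among the 3 nearest genes of another.

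Some of these counts cannot be pinned to the gene alone. Gene-level counts do not separate the standard and variant CD44 isoforms, whose exons are chosen by the splicing regulator ESRP1, which averaged 3.24 CPM in the HCC1187 controls and 139 CPM in the MDA-MB-468 controls (log2 fold change −5.66 ± 0.13, adjusted p = 1.18e-19). COMMD3-BMI1, a readthrough gene that overlaps BMI1 on the same strand, was listed at 0 counts in all 12 libraries, and no source used here says how reads over both genes were treated. The processed copies of CD24 held at most 4 counts in any library, and those of KLF4 and BMI1 0. An antisense gene within ALDH1A3 held 3 to 19 counts per library, against at least 213 for ALDH1A3 itself, and whether the counting used strand is not stated, so sense and antisense reads may not be separated.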

How the data were processed

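The members and the gene lists were chosen with earlier results of these data known. The deposited values are whole-number read counts per gene, made by the authors with Trimmomatic 0.39, HISAT2 2.1.0, SAMtools and featureCounts 2.0.0 on GRCh38, per the submitters' processing notes; FastQC 0.11.9 and MultiQC 1.11 are also named there, and no source used here names the annotation release or the settings. Libraries were made with a stranded mRNA kit, per the labels' protocols. The count columns are split by sequencing lane. Because a group may hold no more columns than samples, lane 1 of each library was used and 24 count columns were not, although the 9 genes were meant to be summed over 3 lanes; depth is thus that of 1 lane. Columns show the group but not which sample of it they are, and the knockdown columns carry a word (BLANCO) that no source explains.

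CPM are counts over the library total. Knockdown and control were compared within a line by edgeR (4.0.16; R 4.3.3) and its quasi-likelihood test, with TMM factors and no replicate block. Genes had to pass filterByExpr at a count of 10 and a total of 15. The lines' difference was an interaction over 12 libraries, and the controls of the lines were compared over 6. Calls are at a Benjamini-Hochberg adjusted p under 0.05 over all genes tested, and standard errors follow from the F statistic. Alternatives were DESeq2 1.42.0, limma-voom (3.58.1, controls only), RLE or library-total scaling, no low-count filter or CPM of at least 1 in 3 libraries, a joint fit of the 12 libraries, and the omission of single libraries; the alternatives on top of leaving out S4 were added after the data were seen. Reporting results without S4 was also chosen after the data were seen. The fitting steps were also run on simulated counts, with an outcome that is not given here. Every library of a group had the same expected levels there, so that run does not bear on calls that turn on S4. Per-kilobase levels use the gene length in the deposited tables. The named genes are the 9 markers, SOX9-AS1, SOX9, up to 4 genes of each list by smallest p, and the 3 genes most like each marker; not all are printed, and the gene most like ALDH3B2 is not reported here. Marker genes of epithelium were always shown, and fibroblast, leukocyte and endothelial lists are under the closing observations. Promoter sequences are from RefSeq (GRCh38.p14). Counts of the most alike libraries, S1 and S2, still differed beyond sampling noise (chi-square over degrees of freedom 1.90). Intervals from counts cover counting error only.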

Additional observations from a re-analysis of the deposited data

Results flagged for a closer look

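When S4 was left out, a choice made after the data were seen, the knockdown effect differed between the lines for 4 of the 9 markers. It also differed for 25.6% of the 16807 genes tested (12.4% higher, 13.2% lower). The interaction test was edgeR quasi-likelihood with Benjamini-Hochberg adjusted p, HCC1187 minus MDA-MB-468. CD24 differed by −1.13 on the log2 scale (adjusted p = 4.51e-06): it was lower in 3 of 3 HCC1187 knockdown libraries and higher in S5 and S6 than in every control of its line. ALDH1A3 differed by 1.62 (adjusted p = 3.17e-10), with S5 and S6 below every MDA-MB-468 control and the HCC1187 knockdown libraries above theirs. Without S4 the MDA-MB-468 groups lay apart for 28.7% of genes upward and 32.9% downward. In HCC1187 they did so for 24.0% and 15.5%. KIT differed by 1.90 (adjusted p = 0.000286), with 8 and 18 counts in S5 and S6. BMI1 differed by −0.85 (adjusted p = 0.0186), and this one was lost when S5 (adjusted p = 0.0587) or S6 (0.0673) was left out as well. With S4 kept, the 4 differences were −0.90, 0.97, 1.19 and −0.71 for CD24, ALDH1A3, KIT and BMI1, and none passed (adjusted p between 0.0721 and 0.203).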

How the results depend on the processing

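For MDA-MB-468 with all libraries, edgeR called 1 of 13638 genes (0.00733%) and 0 markers. DESeq2 called 304 genes (2.23%) and 0 markers. No filter on low counts gave 1441 genes, with PROM1, ALDH1A3, ALDH3B2 and KIT among them, and fitting all 12 libraries together gave 887. The number of genes tested without the filter is not given here. The marker calls of that setting thus have no background share and are no result about the markers. Leaving out 1 library gave 0 to 5678 genes and 0 to 8 markers, the highest without S4 (40.7% of 13947 genes). After S4, leaving out a second library gave 3422 to 6534 genes and 4 to 9 markers; where that left 1 knockdown library, it was assumed to vary like the controls. In HCC1187 fitting all 12 libraries together gave 1499 calls, and leaving out 1 library 2213 to 3407. KIT, not called there, ranged from −0.035 to 0.21 on the log2 scale when a library was left out. The difference between the lines gave 1170 calls with DESeq2 (7.17% of 16328 genes, and 2 markers). With no filter it gave 1415, with CD24, ALDH1A3, KIT and BMI1 among them and again no background share. Leaving out 1 library gave 129 to 4300 calls and 0 to 4 markers, and a second after S4 gave 2855 to 4234. With a library left out, the uncalled differences, which rest on few HCC1187 counts, ranged from −0.47 to 0.70 for ALDH1A1 and −2.94 to 2.13 for ALDH3B2, and after S4 from −0.44 to 0.74 and −3.18 to 1.94. All 117 alternative values of the controls' comparison kept direction and call. The cause of these changes was not tested. The other lanes were not used. No paired analysis was possible because the count columns carry no replicate numbers.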

Other observations

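Summed levels of markers of other cell types are given here. In HCC1187 the 5 fibroblast markers summed to 58.2 to 71.9 CPM with knockdown and 55.8 to 60.1 CPM in the controls. COL1A1 alone made up most of these sums (50.1 to 64.5 CPM with knockdown and 48.8 to 55.7 CPM in the controls), while COL1A2 had 0 counts and DCN at most 0.166 CPM. The 5 leukocyte markers summed to 2.93 to 3.98 CPM with knockdown and 2.48 to 3.60 CPM in the HCC1187 controls. In MDA-MB-468 the fibroblast markers summed to 13.0 to 18.9 CPM with knockdown and 11.4 to 14.7 CPM in the controls, the leukocyte markers to 0 to 0.138 and 0 to 0.379 CPM, and the endothelial markers to 8.95 to 16 and 14.3 to 19.9 CPM. Their part in the marker results was not tested.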
